A study of Mus musculus with 33 samples.

Results

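The 79 genes described here encode subunits of the mitochondrial respiratory chain and of ATP synthase that are carried on the nuclear genome and were read in mouse hippocampus. They were chosen by gene symbol among probe sets annotated to 1 gene: symbols that begin with Ndufa, Ndufb, Ndufc, Ndufs or Ndufv and a digit (complex I), Sdha to Sdhd (complex II), Uqcr (complex III), Cox4 to Cox8 (complex IV) and Atp5 (complex V, ATP synthase). Where a gene had several probe sets, the one with the highest mean over 33 arrays was used, and this mean had to exceed 13. Of 81 symbols that matched, 79 met this limit, among 12760 genes tested in all. The 2 below it were Cox4i2, with a mean signal of 10.7, and Ndufb4, with 11.6, and the member nearest above it was Cox7b2, with 15.2. The members comprise 34 genes of complex I, 4 of complex II, 8 of complex III, 16 of complex IV and 17 of complex V. A further 9 probe sets that carry such a symbol name several genes and were left out, among them both bright probe sets of the Ndufb4 family.

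Expression was read on Affymetrix MOE430 2.0 arrays in total RNA of right hippocampi, with 33 male mice (SJL × C57BL/6J) and 1 array for each. The 3 groups of 11 were wild-type littermates given vehicle, heterozygous Tg2576 mice given vehicle, and heterozygous Tg2576 mice given TO901317 by mouth at 50 mg per kg per day, all 20 weeks old. Tg2576 mice carry human APP with the Swedish mutation of familial Alzheimer's disease, driven by the prion promoter, so the transgene is not limited to 1 cell type of the hippocampus. TO901317 activates the liver X receptors, nuclear receptors for oxysterols. The labels give 7 days of dosing in one place and 5 days in another, and treated wild-type mice were not analysed here. P-values of the group comparisons set differences between groups against the spread between animals. With 1 array for each animal, this spread also holds variation between arrays. In tissue of many cell types, fewer cells of a type and less RNA per cell cannot be told apart.

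The respiratory chain moves electrons from NADH (complex I) and succinate (complex II) through ubiquinone to complex III, then through cytochrome c to complex IV, which reduces oxygen. Complexes I, III and IV pump protons across the inner mitochondrial membrane, and complex V uses the return of these protons to make ATP. Most subunits are encoded in the nucleus and a small core is encoded on mitochondrial DNA, so assembly needs products of both genomes. In neurons this machinery supplies most of the ATP used for ion pumping and synaptic transmission. Nuclear respiratory factors (NRF1 and the ETS-family factor NRF2), YY1 and estrogen-related receptors (ERR) are known regulators of these genes.

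RefSeq promoter windows of build GRCm38.p6, from 250 bases before to 50 bases after the annotated start, matched 65 of the 79 members, and 27025 genes in all. Motif letters were searched on both strands without mismatch. A gene was counted if any of its windows held the letters. The core of the NRF1 motif, GCATGCGC, was present in 9 members (13.8%, against 3.05% of all genes with a window). The full palindrome, which is this core with a further GC on its 5' side and so overlaps it, was present in 4 (6.15% against 1.07%). The ETS motif CCGGAAG was present in 17 (26.2% against 9.93%), the YY1 motif AAGATGGC in 9 (13.8% against 3.19%) and the ERR motif TCAAGGTCA in 2 (3.08% against 0.466%). The CCAAT box was present in 27 (41.5% against 41.1%). These matches are descriptions of letters and not of binding.

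The 4 stretches with the whole NRF1 motif, in capitals, are shown because they belong to 3 different complexes whose levels over animals are compared further on. The first 3 lie before the start, and that of Uqcrc1 begins 30 bases after it.
Atp5g2, chr15:102671060-102671109, minus strand: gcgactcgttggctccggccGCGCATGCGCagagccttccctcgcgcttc
Atp5k, chr5:108434420-108434469, minus strand: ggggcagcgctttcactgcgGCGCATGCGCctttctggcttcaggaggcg
Cox6a1, chr5:115349091-115349140, minus strand: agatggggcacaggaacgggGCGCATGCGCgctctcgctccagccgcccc
Uqcrc1, chr9:108936668-108936697, plus strand: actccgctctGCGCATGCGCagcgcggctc

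The YY1 letters, in capitals, fell close to the annotated start in 8 of 9 windows, and 4 examples are shown from complexes I and V. In Ndufs7 and Ndufa9 the motif begins 24 and 29 bases after the start, in Atp5pb it begins 3 bases before the start and runs across it on the opposite strand, and in Atp5j it lies 88 bases before it.
Ndufs7, chr10:80249463-80249490, plus strand: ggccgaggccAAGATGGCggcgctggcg
Ndufa9, chr6:126849098-126849125, minus strand: attgtgggagAAGATGGCggccgccgtc
Atp5pb, chr3:105959249-105959276, minus strand: tgtgcgagcgGCCATCTTgctcctgccc
Atp5j, chr16:84835037-84835084, minus strand: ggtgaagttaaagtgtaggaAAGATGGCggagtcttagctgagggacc

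The 120 bases before the annotated start of Cox8b, the member whose signal varied most between animals, are shown as well. None of the 6 sets of letters was found in its window. The same held for a number of other members, among them the bright genes Cox5a, Cox5b and Cox7a2.
Cox8b, chr7:140900447-140900566, minus strand: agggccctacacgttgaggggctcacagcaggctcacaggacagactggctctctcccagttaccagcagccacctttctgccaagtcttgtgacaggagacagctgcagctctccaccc

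Values are linear array signals that the authors had scaled so that every array's trimmed mean was 99.97, while array medians lay between 19.5 and 28.9. Tests used log2(signal + 16), which understates changes of dim genes, in a limma fit of 3 group means on all 33 arrays, with Benjamini-Hochberg adjustment over 12760 genes and a limit of 0.05. Vehicle Tg2576 replicates 3 and 4 stood apart in 1 measure of RNA quality, the Gapdh control probe sets (3' over 5', log2). In the same ratio for actin they did not, as vehicle Tg2576 replicate 5, wild-type replicate 2 and treated replicate 11 lay higher. Markers of choroid plexus, a tissue next to the hippocampus, were high on 11 arrays spread over all groups (3 wild type, 3 vehicle Tg2576 and 5 treated Tg2576). The number of arrays limits the precision.

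No subunit gene passed in any of the 3 comparisons. In vehicle Tg2576 against wild type, 0 of 79 members had an adjusted p under 0.05 in limma, where 0.235% of all genes tested did, and 0 had an unadjusted p under 0.05, where 11.9% of all genes did (6.37% higher and 5.53% lower). In treated against vehicle Tg2576 the count was 0 of 79 (0.282% of all genes), with 6 at an unadjusted p under 0.05 (7.59%, against 11.7% of all genes). Of these, Uqcrh was higher (5.09% of all genes were) and 5 members were lower (6.61% of all genes). In treated Tg2576 against wild type it was 0 of 79 (0.361% of all genes), with 7 at an unadjusted p under 0.05 (8.86%, against 9.43%), all of them lower, where 4.12% of all genes were higher and 5.31% lower. An exact rank-sum test also called 0 members in each comparison (0.11%, 0.188% and 0.204% of all genes), and 0, 5 and 5 members had an unadjusted exact p under 0.05 (9.69%, 10% and 10% of all genes). No member had 2 groups whose signals did not overlap, against 0.047%, 0.0157% and 0.0313% of all genes in these comparisons. The comparisons share groups, so their results are not independent of each other.

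The 95% intervals show how small a change the 1 probe set used for each gene leaves room for. They lay wholly within 1.2-fold in either direction for 71 of 79 members in vehicle Tg2576 against wild type and for 67 in each of the other comparisons. Other probe sets of a gene are not covered by them. Those of Uqcr10, with mean signals of 109 and 231, gave log2 changes of 0.28 and 0.28 in vehicle Tg2576 against wild type. In treated against vehicle Tg2576 they gave -0.35 and -0.47. The Uqcr10 probe set used gave 0.024 and -0.10 in these 2 comparisons. The median standard error of a member's log2 change was 0.053, against 0.077 over all genes. The median log2 change over the members was -0.0080 in vehicle Tg2576 against wild type (0.0066 over all genes), -0.015 in treated against vehicle Tg2576 (-0.010) and -0.023 in treated Tg2576 against wild type (-0.0026). Changes above 0 were seen in 33, 31 and 25 of the 79 members, or 41.8%, 39.2% and 31.6%, against 53%, 45.8% and 48.7% of all genes. This split depended on scaling. After quantile normalization the numbers above 0 were 48, 19 and 25, and with each array centred on its median log2 signal they were 28, 30 and 15. With 1 array left out at a time they ranged from 21 to 41, from 24 to 43 and from 16 to 34. The median turned to 0.0033 in vehicle Tg2576 against wild type without vehicle Tg2576 replicate 9, and to 0.0041 in treated against vehicle Tg2576 without vehicle Tg2576 replicate 4. Without vehicle Tg2576 replicates 3 and 4, which stood apart in the Gapdh ratio, the numbers above 0 were 16, 51 and 25 and again 0 members passed.

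**Figure D1:**
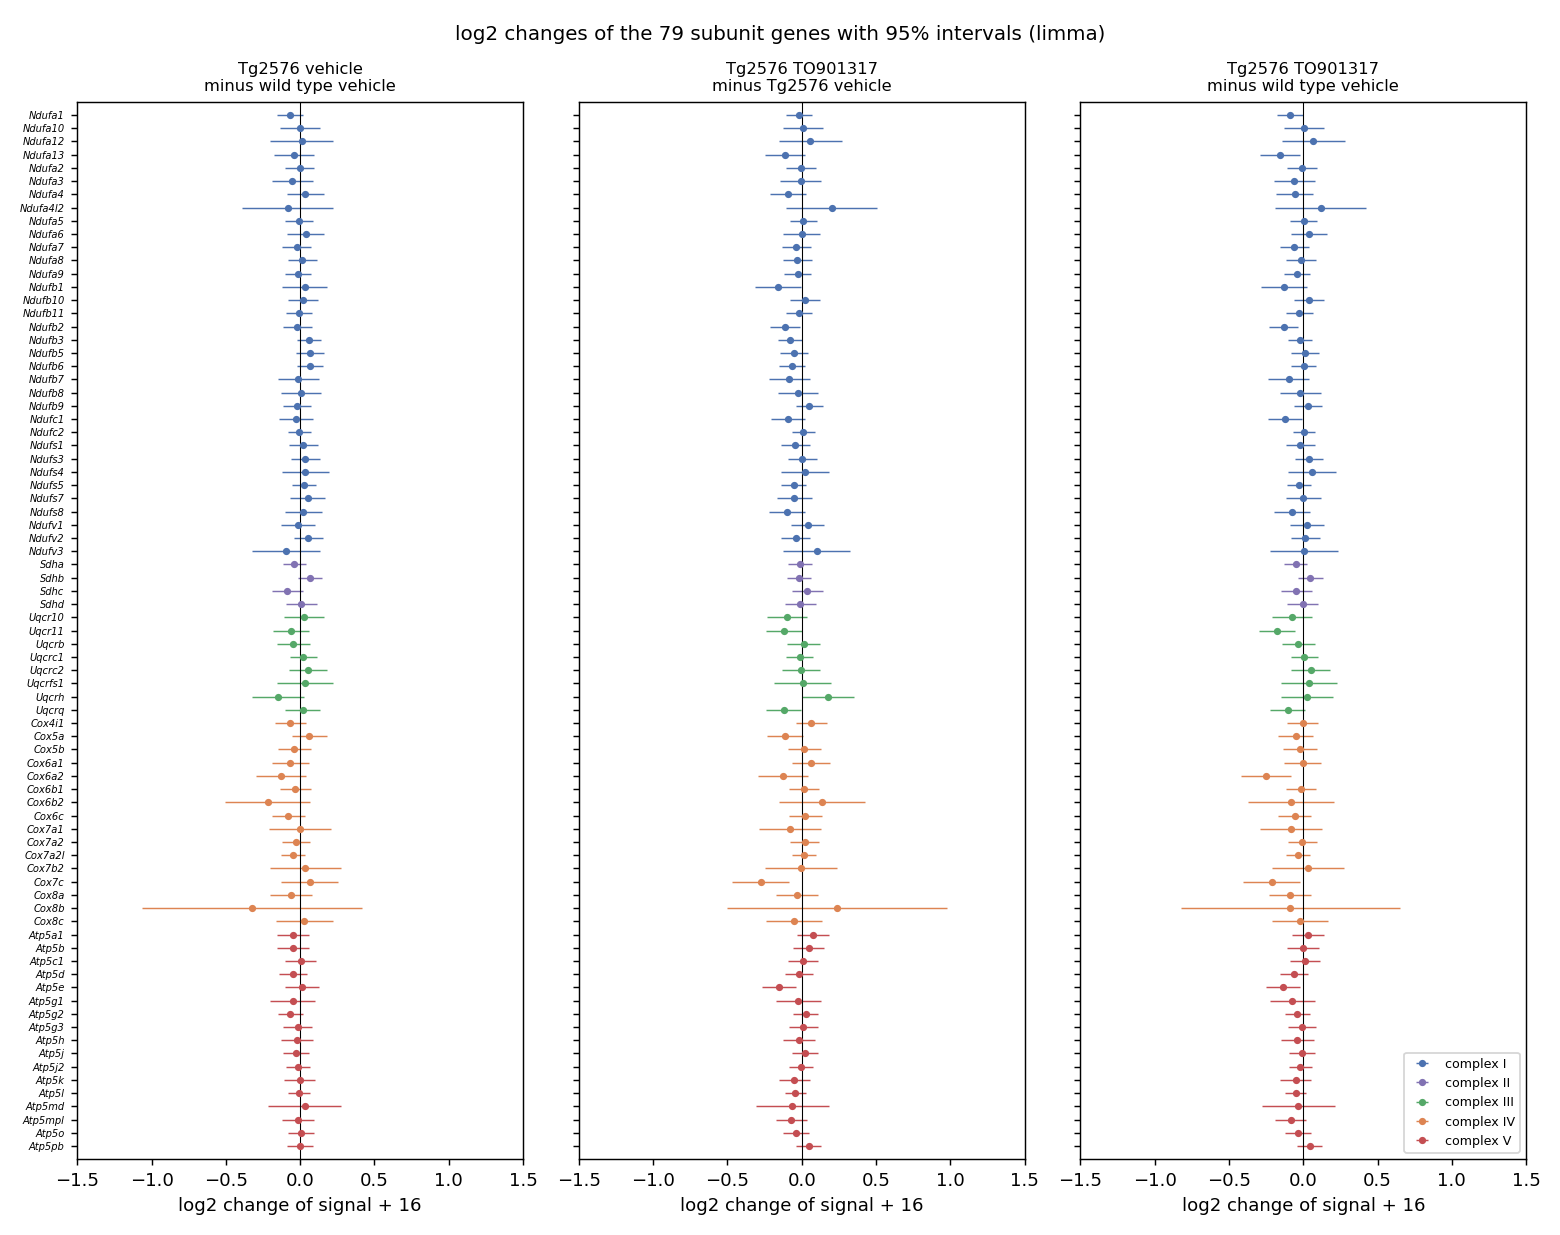
log2 changes of signal + 16 (horizontal axes) for the 79 subunit genes (rows, coloured by complex) in the 3 comparisons, with 95% intervals from limma. Most intervals are narrow and cross 0, and Cox8b has the widest.

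Complex I, the NADH dehydrogenase and the largest complex, held close levels across groups. Ndufs1, its largest iron-sulfur subunit, had signals of 769 to 968 in wild type (median 835), 785 to 1051 in vehicle Tg2576 (median 817) and 767 to 925 in treated Tg2576 (median 829). The 3 ranges overlapped nearly in full. Its log2 change was 0.022 ± 0.048 (SE) in vehicle Tg2576 against wild type and -0.043 ± 0.048 in treated against vehicle Tg2576 (limma adjusted p = 0.913 and 0.794). Ndufv1, which binds NADH and the flavin, had means of 1210 ± 126, 1199 ± 118 and 1230 ± 88.6 (SD, n = 11 each) in wild type, vehicle and treated Tg2576. Its 2 other probe sets, with mean signals of 829 and 814, gave log2 changes of 0.14 and 0.10 in treated against vehicle Tg2576, where the one used gave 0.040.

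The complex I member of smallest p in vehicle Tg2576 against wild type was Ndufa1, a small membrane subunit needed for assembly. Its signals ran from 2085 to 2715 in wild type (median 2281), from 1889 to 2433 in vehicle Tg2576 (median 2171) and from 1977 to 2309 in treated Tg2576 (median 2160). The wild-type animals reached higher, but most values were shared, and the log2 change was -0.07 ± 0.04 (SE, adjusted p = 0.551). Ndufb2, an accessory subunit of the membrane arm, had the smallest p of complex I in both comparisons with the drug. Its signals were 1432 to 1876 in wild type (median 1627), 1352 to 1781 in vehicle Tg2576 (median 1622) and 1391 to 1637 in treated Tg2576 (median 1470). The treated animals lacked the upper values of the other groups but lay wholly inside the vehicle Tg2576 range. The log2 change was -0.11 ± 0.05 against vehicle Tg2576 and -0.13 ± 0.05 against wild type (SE, adjusted p = 0.348 and 0.313). A further probe set of Ndufb2 with a mean signal of 1047 gave -0.14 and -0.17, while a dim one with a mean of 20.3 gave 0.020 and 0.045.

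Of the 34 complex I members, 18 had a log2 change above 0 in vehicle Tg2576 against wild type, 11 in treated against vehicle Tg2576 and 16 in treated Tg2576 against wild type. The members of complex I with an unadjusted p under 0.05 were all lower: Ndufb2 and Ndufb1 in treated against vehicle Tg2576, and Ndufb2, Ndufa13 and Ndufc1 in treated Tg2576 against wild type. Ndufb1, Ndufa13 and Ndufc1 are named after their values were seen. Ndufa13 had means of 2720 ± 284, 2638 ± 199 and 2454 ± 341 in wild type, vehicle and treated Tg2576 (SD, n = 11 each), with an adjusted p of 0.435 for treated Tg2576 against wild type. Ndufc2, an accessory subunit with the second smallest relative spread of all members (coefficient of variation 5.46% over 33 arrays), had group means of 2040 ± 98.2, 2030 ± 75.7 and 2049 ± 155. Its 2 other probe sets, with mean signals of 1294 and 1583, gave log2 changes of 0.21 and 0.13 in vehicle Tg2576 against wild type and of -0.13 and -0.12 in treated against vehicle Tg2576.

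Complex II, succinate dehydrogenase, also belongs to the tricarboxylic acid cycle and is encoded wholly in the nucleus. Sdha, its flavoprotein, ranged from 1488 to 1751 in wild type (median 1622), from 1426 to 1749 in vehicle Tg2576 (median 1581) and from 1461 to 1706 in treated Tg2576 (median 1547). Its coefficient of variation was 5.85%, among the 3 smallest of the members. The log2 change in treated Tg2576 against wild type was -0.05 ± 0.04 (SE, adjusted p = 0.756), within the overlap of the groups. Sdhb, the iron-sulfur subunit, ranged from 1332 to 1734 in wild type (median 1491), from 1435 to 1750 in vehicle Tg2576 (median 1560) and from 1428 to 1680 in treated Tg2576 (median 1559). The lowest Tg2576 values lay above the lowest wild-type ones, and the log2 change in vehicle Tg2576 was 0.07 ± 0.04 (adjusted p = 0.534).

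Sdhc and Sdhd anchor the enzyme in the membrane. Sdhc had means of 596 ± 62.9, 560 ± 48.4 and 576 ± 41.5 in wild type, vehicle and treated Tg2576 (SD, n = 11 each). Its changes of -0.09 in vehicle Tg2576 against wild type and 0.039 in treated against vehicle Tg2576 had the opposite sign on its other probe set, which gave 0.10 and -0.11. Sdhd had means of 698 ± 51.6, 702 ± 56.4 and 698 ± 73.5.

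Complex III passes electrons from ubiquinol to cytochrome c. Uqcrc1, a core subunit, ranged from 1402 to 1695 in wild type (median 1631), from 1449 to 1858 in vehicle Tg2576 (median 1598) and from 1437 to 1808 in treated Tg2576 (median 1584). The groups overlapped throughout, with a log2 change of 0.021 ± 0.045 (SE, adjusted p = 0.909) in vehicle Tg2576 against wild type. Uqcrfs1, the Rieske iron-sulfur protein, had means of 936 ± 150, 960 ± 174 and 957 ± 124 (SD, n = 11 each).

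Uqcrh, the hinge protein that touches cytochrome c1, had the smallest adjusted p of all members in vehicle Tg2576 against wild type. Its signals were 1401 to 2284 in wild type (median 1799), 1254 to 2169 in vehicle Tg2576 (median 1653) and 1565 to 2052 in treated Tg2576 (median 1897). The lowest animals were in the vehicle Tg2576 group, yet every treated animal lay within the wild-type range. The log2 change was -0.15 ± 0.09 in vehicle Tg2576 against wild type (SE, adjusted p = 0.516) and 0.18 ± 0.09 in treated against vehicle Tg2576 (adjusted p = 0.418). The other probe set of Uqcrh, with a mean signal of 1698, gave -0.037 and -0.0055 for these comparisons.

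Uqcr11, a small accessory subunit of complex III, ranged from 1335 to 1924 in wild type (median 1537), from 1260 to 1930 in vehicle Tg2576 (median 1422) and from 1210 to 1549 in treated Tg2576 (median 1353). Treated animals were the lowest as a group but overlapped both others, and the log2 change against wild type was -0.18 ± 0.06 (SE, adjusted p = 0.251). Uqcrq, the ubiquinone-binding accessory subunit, had means of 1392 ± 133, 1412 ± 173 and 1291 ± 90.1 in wild type, vehicle and treated Tg2576 (SD, n = 11 each). Its log2 change in treated against vehicle Tg2576 was -0.12 ± 0.06 (SE, adjusted p = 0.405).

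**Figure D2:**
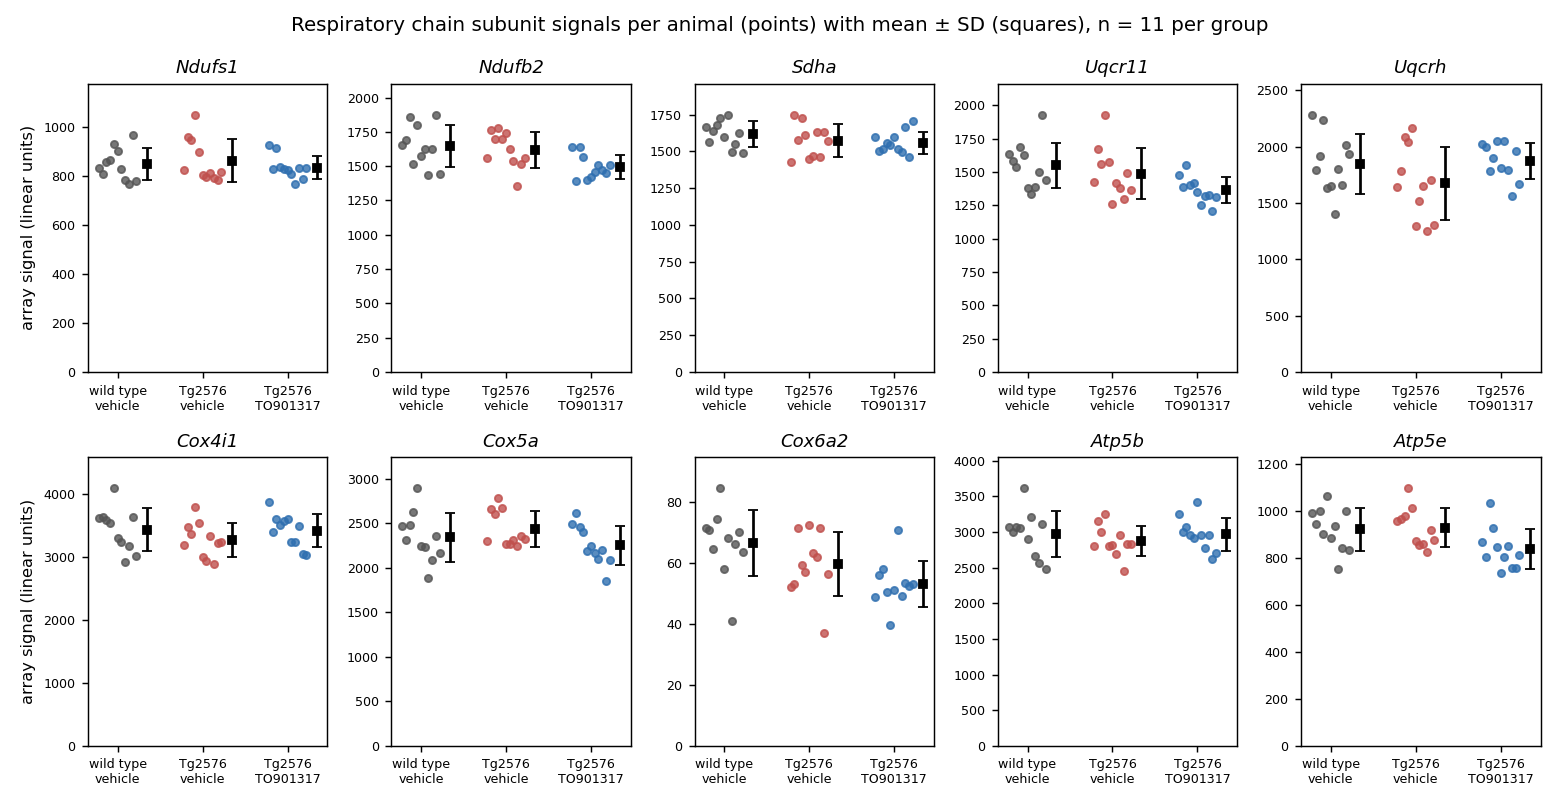
Array signals (vertical axes, linear units from 0) of 10 subunit genes in every animal, with mean and SD as squares and bars, n = 11 per group. The groups overlap in each panel, also for Ndufb2, Uqcr11, Cox6a2 and Atp5e, where the treated group has the lowest mean.

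Complex IV, cytochrome c oxidase, is the complex whose nuclear subunits come as tissue isoforms. Cox4i1, the isoform of subunit 4 found in most tissues, ranged from 2918 to 4085 in wild type (median 3540), from 2890 to 3790 in vehicle Tg2576 (median 3227) and from 3031 to 3863 in treated Tg2576 (median 3494). The ranges overlapped nearly in full, with log2 changes of -0.07 ± 0.05 and 0.06 ± 0.05 (SE, adjusted p = 0.662 and 0.692) in vehicle Tg2576 against wild type and in treated against vehicle Tg2576. The other isoform, Cox4i2, lay below the signal limit.

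Cox5a, which faces the mitochondrial matrix, ranged from 1887 to 2893 in wild type (median 2309), from 2249 to 2788 in vehicle Tg2576 (median 2319) and from 1851 to 2613 in treated Tg2576 (median 2197). The wild-type range held those of the other groups except for the lowest treated value. The log2 change in treated against vehicle Tg2576 was -0.11 ± 0.06 (SE, adjusted p = 0.458), but 2 further probe sets of the gene gave 0.038 and 0.11. With neuron, astrocyte and oligodendrocyte marker scores as covariates, Cox5a and Atp5e were the 2 members called lower in that comparison, in a fit that called 97 genes in all (0.76% of all genes).

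Cox7c, a small structural subunit, had the smallest adjusted p of all members in treated against vehicle Tg2576. The probe set used for Cox7c was dim, and how well it reads the transcript was not tested. Its signals were 29.3 to 51.9 in wild type (median 43.0), 31.0 to 58.4 in vehicle Tg2576 (median 41.9) and 23.0 to 53.1 in treated Tg2576 (median 32.03). Treated animals were low by their median but spread across most of the range of the others. The log2 change was -0.28 ± 0.10 against vehicle Tg2576 (SE, adjusted p = 0.218). Cox6a2, the heart and muscle isoform of subunit 6a, had the smallest adjusted p in treated Tg2576 against wild type. It ranged from 40.8 to 84.4 in wild type (median 68.1), from 37.1 to 72.5 in vehicle Tg2576 (median 59.3) and from 39.6 to 70.9 in treated Tg2576 (median 52.3). The medians fell in that order, with overlap of all ranges, and the log2 change of treated Tg2576 against wild type was -0.25 ± 0.08 (adjusted p = 0.230).

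The isoforms found in most tissues had close group means. Cox6a1 had means of 4360 ± 533, 4148 ± 318 and 4344 ± 462 in wild type, vehicle and treated Tg2576 (SD, n = 11 each), and Cox6b1 had 3688 ± 318, 3608 ± 338 and 3638 ± 241. Cox7a2 had means of 4442 ± 378, 4356 ± 382 and 4412 ± 262, and Cox8a had 3271 ± 415, 3132 ± 403 and 3063 ± 319. Cox7a2l, which takes part in joining complexes III and IV, had 1042 ± 87.8, 1004 ± 52.2 and 1014 ± 42.8. The heart and muscle isoform Cox7a1 stayed dim in all groups, with a highest signal of 58.6. Of the 16 complex IV members, 4, 9 and 1 had a log2 change above 0 in vehicle Tg2576 against wild type, treated against vehicle Tg2576 and treated Tg2576 against wild type. The 15 below 0 in the last comparison were led by Cox6a2, and the median over all 16 was -0.04.

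Complex V makes ATP on its alpha and beta subunits. Atp5b, the catalytic beta subunit, ranged from 2477 to 3615 in wild type (median 3054), from 2455 to 3247 in vehicle Tg2576 (median 2827) and from 2626 to 3418 in treated Tg2576 (median 2960). The groups overlapped nearly in full, with a log2 change of -0.05 ± 0.05 in vehicle Tg2576 against wild type (SE, adjusted p = 0.799). Atp5a1, the alpha subunit, had means of 2924 ± 286, 2830 ± 261 and 2980 ± 212 (SD, n = 11 each).

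Atp5e, the epsilon subunit of the central stalk, had the smallest p of complex V in both comparisons with the drug. It ranged from 750 to 1062 in wild type (median 935), from 826 to 1095 in vehicle Tg2576 (median 919) and from 736 to 1031 in treated Tg2576 (median 813). The treated median lay below the lowest vehicle Tg2576 animal, but the ranges overlapped. The log2 change was -0.15 ± 0.06 against vehicle Tg2576 and -0.14 ± 0.06 against wild type (SE, adjusted p = 0.269 and 0.399). Atp5g1, Atp5g2 and Atp5g3 encode the same mature c-ring protein with different import sequences. In vehicle Tg2576 against wild type their log2 changes were -0.05, -0.07 and -0.018, with adjusted p = 0.848, 0.555 and 0.929. Atp5l, subunit g, had the smallest relative spread of all members (5.12% over 33 arrays), with means of 1639 ± 85.1, 1630 ± 75.3 and 1582 ± 83.3. Of the 17 complex V members, 4, 7 and 3 had a log2 change above 0 in the 3 comparisons in the same order.

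The level of the subunit genes varied from animal to animal within each group. The level of an animal, taken as the median over the 79 members of its deviation from each gene's mean, had an SD of 0.09 in wild type, 0.09 in vehicle Tg2576 and 0.07 in treated Tg2576 (log2 scale, n = 11 each). The group means were 0.013, 0.0053 and -0.012, and means of 11 animals vary less than single animals do. The highest animals were wild-type replicate 5 at 0.15, vehicle Tg2576 replicate 4 at 0.17 and treated replicate 1 at 0.13, and the lowest were wild-type replicate 8 at -0.13, vehicle Tg2576 replicate 9 at -0.11 and treated replicate 10 at -0.13. Each group thus held both high and low animals. Taken alone, complex III had SDs of 0.11, 0.14 and 0.08 and complex II had 0.06, 0.07 and 0.04.

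The spread followed the replicate numbers of the labels, a split that was noticed after the values were seen and that the labels do not explain. Replicates 1 to 5 had a mean level of 0.07 ± 0.05 in wild type, 0.08 ± 0.08 in vehicle Tg2576 and 0.04 ± 0.05 in treated Tg2576 (SD, n = 5 each). Replicates 6 to 11 had -0.04 ± 0.09, -0.06 ± 0.03 and -0.06 ± 0.05 (n = 6 each). The lower numbers were thus higher on average in each group, though in wild type only 1 of 5 exceeded the highest of the others, against 4 of 5 in vehicle Tg2576 and 3 of 5 in treated Tg2576. After quantile normalization the means of replicates 1 to 5 were 0.018, 0.05 and 0.00092, and those of 6 to 11 were -0.0016, -0.0024 and -0.04. Other genes with a mean signal above 500 moved the same way as deposited, with means of 0.04, 0.06 and 0.016 against -0.03, -0.05 and -0.0094. Array medians moved the opposite way, at 22.1, 20.6 and 22.6 against 23.5, 25.3 and 23.7. The log2 Gapdh 3' to 5' ratio was -0.18, -0.05 and -0.22 in replicates 1 to 5 against -0.22, -0.26 and -0.22 in 6 to 11. The part of these measures in the subunit levels was not tested.

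Within replicates 1 to 5 the median log2 change of the members was 0.014 in vehicle Tg2576 against wild type, -0.05 in treated against vehicle Tg2576 and -0.04 in treated Tg2576 against wild type. Within replicates 6 to 11 it was -0.03, 0.013 and -0.017. The sign of the median therefore differed between the number ranges in both comparisons that involve vehicle Tg2576. No member passed in either range, where limma called 2, 0 and 4 genes in all among the lower numbers and 23, 13 and 9 among the higher.

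**Figure D3:**
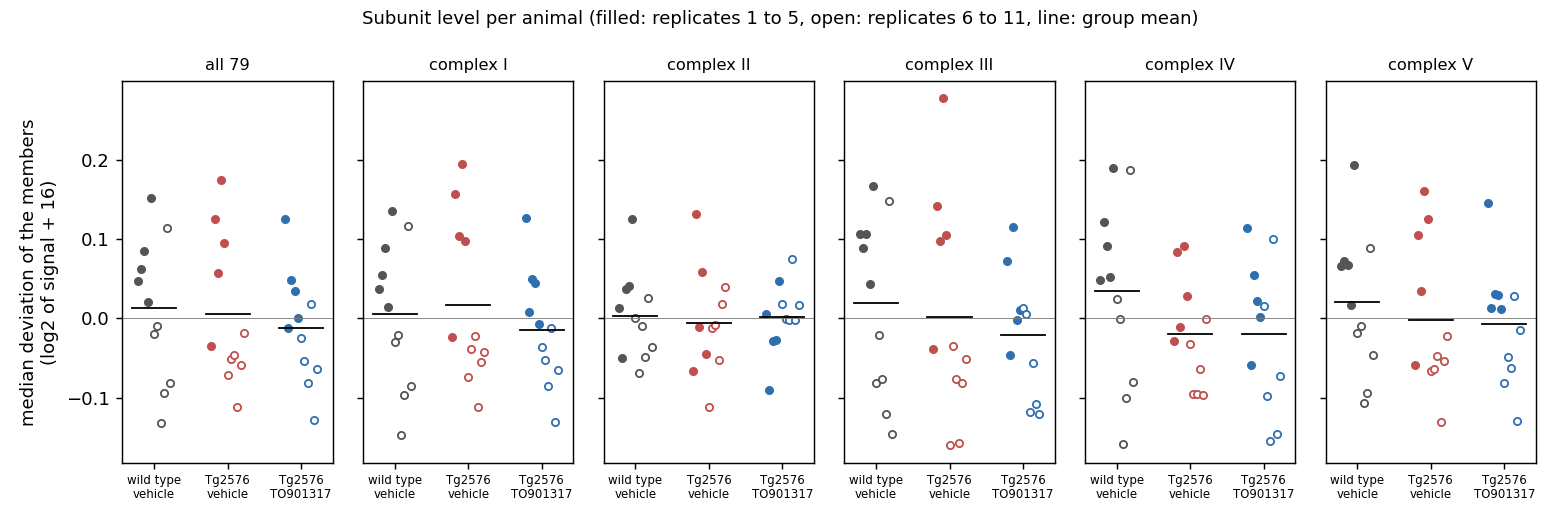
Level of the subunit genes in each animal (vertical axis, median deviation on the log2 scale of signal + 16) for all 79 members and by complex; filled points are replicates 1 to 5, open points 6 to 11, and lines are group means. Filled points lie mostly above open ones in all panels but complex II, while the group means lie close together.

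Pairs of members rose and fell together from animal to animal. With group means removed, the median Pearson r over pairs of members was 0.41 over 33 animals, and 84% of pairs were above 0. The median was 0.45 within complexes and 0.39 between them, and 0.47 in complex I, -0.0069 in II, 0.45 in III, 0.13 in IV and 0.50 in V. The members with a mean signal above 500, 69 in number, had a median of 0.52, and all 1879 genes tested above that signal had 0.11. These values share arrays and their scaling. After quantile normalization the medians were 0.13 for the members and 0.0073 for the genes above 500, and with arrays centred on their medians they were 0.66 and 0.47. With the means of replicates 1 to 5 and of 6 to 11 also removed within each group, they were 0.27 and 0.058.

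The median r with the other members was below 0 for 5 genes, both dim and bright. Cox8c, a testis isoform, had a median r of -0.29 with the other members and a mean signal of 62.3, and Cox7c had -0.28. Sdhd and Sdhc, with -0.10 and -0.06, and Atp5pb, the stator subunit b of ATP synthase, with -0.05 and a mean signal of 1981, were the others. Cox8b had 0.019 and Ndufa4l2, a paralog of Ndufa4 known to respond to hypoxia, had 0.014. At the other end were Cox6b1 at 0.66, Ndufa8 at 0.66 and Ndufa4 at 0.65. Ndufa4 is named for complex I but is known as a subunit of cytochrome c oxidase.

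**Figure D4:**
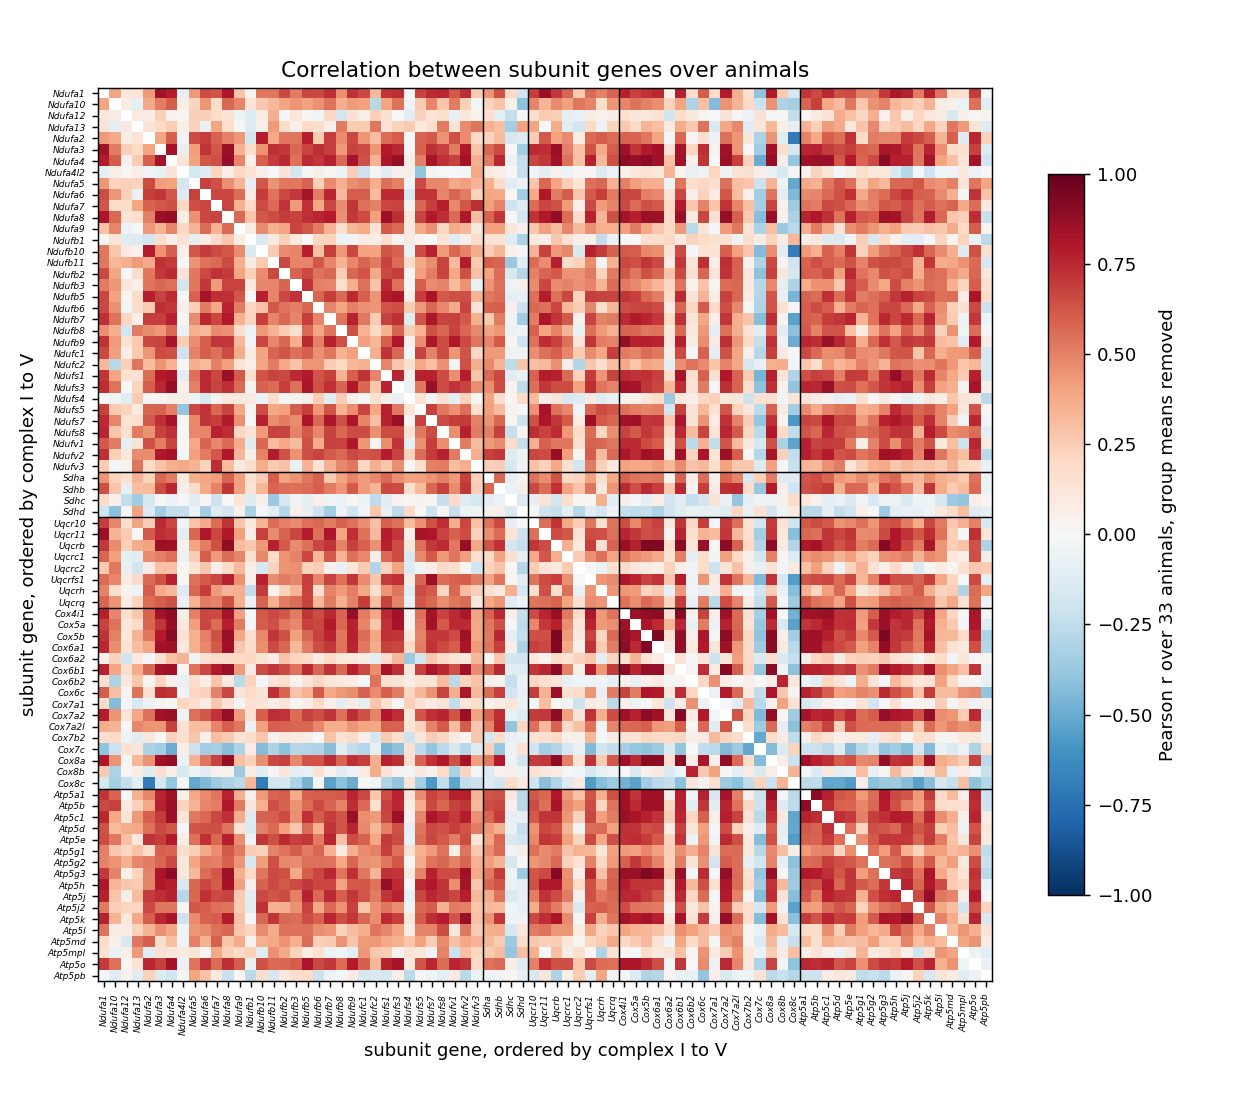
Pearson r between each pair of the 79 subunit genes over 33 animals with group means removed, ordered by complex (black lines), from -1 in blue to 1 in red. Complexes I, III and V and the bright complex IV genes form a red field, with pale or blue lines for Cox7c, Cox8c, Cox8b, Sdhc and Sdhd.

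The level of the members also moved with that of other energy genes. Over 33 animals with group means removed, it had r = 0.887 and rho = 0.875 with the mean level of 13 glycolysis genes, and r = 0.776 and rho = 0.722 with 19 genes of the tricarboxylic acid cycle and pyruvate dehydrogenase. With the 2 farthest arrays left out these r were 0.857 and 0.724. Within replicates 1 to 5 the r with glycolysis was 0.783 (n = 15) and within 6 to 11 it was 0.772 (n = 18). The r with the tricarboxylic acid cycle was 0.812 within replicates 1 to 5. Within 6 to 11 it was 0.639 with rho = 0.34, and it rested on 2 arrays, without which it was 0.03. The median deviation of the other genes above a signal of 500 had r = 0.845 and rho = 0.848, and within the number ranges 0.773 and 0.617. Neuron markers had r = 0.556 and rho = 0.593, but -0.122 within replicates 6 to 11. The array median had r = -0.439 and rho = -0.402, and 0.354 within replicates 6 to 11. These are descriptions over arrays that share their scaling.

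Cox8b, the heart and muscle isoform of subunit 8, varied most between animals, with a coefficient of variation of 148% over 33 arrays. Its signals ran from 11.5 to 299 in wild type (median 19.0), from 6.05 to 136 in vehicle Tg2576 (median 15.7) and from 8.27 to 152 in treated Tg2576 (median 25.7). Each group held a few high animals, and the groups overlapped nearly in full. The log2 change was -0.32 ± 0.36 in vehicle Tg2576 against wild type and 0.24 ± 0.36 in treated against vehicle Tg2576 (SE, adjusted p = 0.799 and 0.858).

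The animals with high Cox8b were those with high choroid plexus markers. The marker score is the mean log2 deviation of 12 genes, Cox8b not among them. It was divided into 22 arrays at or below -0.25 and 11 arrays from 0.46 to 3.04, with no array between. The division was made after the scores were seen, at the widest gap outside the 3 highest arrays. A wider gap, from 1.94 to 3.04, set wild-type replicate 10 apart at the top and was not used. Cox8b signals were 6.05 to 26.0 on the 22 low arrays (median 15.98) and 25.7 to 299 on the 11 high arrays (median 44.0), so that the classes barely touched. Among the high arrays the median was 72.02 in wild type (n = 3), 49.0 in vehicle Tg2576 (n = 3) and 37.7 in treated Tg2576 (n = 5). Among the low arrays it was 18.6, 14.5 and 15.8 (n = 8, 8 and 6).

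Within the 11 high arrays Cox8b rose with the marker score. Pearson's r was 0.958 (permutation p = 1e-05, the smallest that 100000 resamples can give, two-sided) and Spearman's rho was 0.909 (permutation p = 0.00031), with r = 0.885 when the 2 arrays farthest from the median score were left out. In a limma fit of all 12760 genes on the score in these arrays, the slope of Cox8b was 1.27 ± 0.11 log2 units per unit of score (SE, adjusted p = 2.99e-06 over all genes). Cox8b was the only 1 of 79 members to pass, where 0.674% of all genes did. At an unadjusted p under 0.05 there were 17 of 79 members, a larger share than the 9.46% of all genes. The slopes of these members were all above 0. With each array left out in turn the adjusted p was at most 0.00199, reached without wild-type replicate 10, the array of highest score. Within the 22 low arrays Cox8b had r = 0.183 (permutation p = 0.415) and rho = 0.181 (p = 0.419), and limma called 0 members (0.00784% of all genes). At an unadjusted p under 0.05 there were 19 of 79 members, again a larger share than that of all genes (11.3%). Here all of them but Cox8c had slopes below 0. Why the sign differed between the 2 classes of arrays was not tested. These correlations are part of 158 computed, for 79 members in both classes.

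The marker list behind the score had 12 of 16 genes tested. Its summed signal ran from 454 to 12021 in wild type, from 252 to 8128 in vehicle Tg2576 and from 999 to 9306 in treated Tg2576. Ttr, transthyretin, the most abundant marker, was read at 60.2 to 6988 over all animals. Folr1 and Kcnj13, both choroid plexus epithelial genes, were read down to 10.6 and 13.8 and up to 816 and 1358. The part of choroid plexus tissue in the Cox8b signal was not tested beyond this slope.

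No other isoform shared this slope at the adjusted limit. In complex IV, Cox6b2, Cox8a and Cox6a1 also had slopes above 0 in the high arrays at an unadjusted p under 0.05. They were 0.27, 0.17 and 0.14 log2 units per unit of score (limma, unadjusted p = 0.024, 0.013 and 0.044). In the low arrays the slopes of these genes were -0.066, -0.23 and -0.083 (limma, unadjusted p = 0.741, 0.094 and 0.460). Cox6b2, the testis isoform of subunit 6b, had the second largest relative spread (41.9%) and signals of 15.5 to 40.8 on the low arrays and 34.4 to 77.7 on the high ones (medians 24.8 and 39.5). Its r with the score within the high arrays was 0.607 (permutation p = 0.0553) and its rho 0.0636 (p = 0.86), and leaving out 1 array at a time gave r from 0.167 to 0.731. Wild-type replicate 10 had the highest signal of both Cox8b and Cox6b2. Cox8a, the isoform of most tissues, had signals of 2575 to 3920 on the low arrays and 2579 to 3744 on the high ones. Its slope in the high arrays had an adjusted p of 0.319. Ndufa4l2, next in relative spread (40.6%), had a median of 21.0 on the low and 23.9 on the high arrays.

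**Figure D5:**
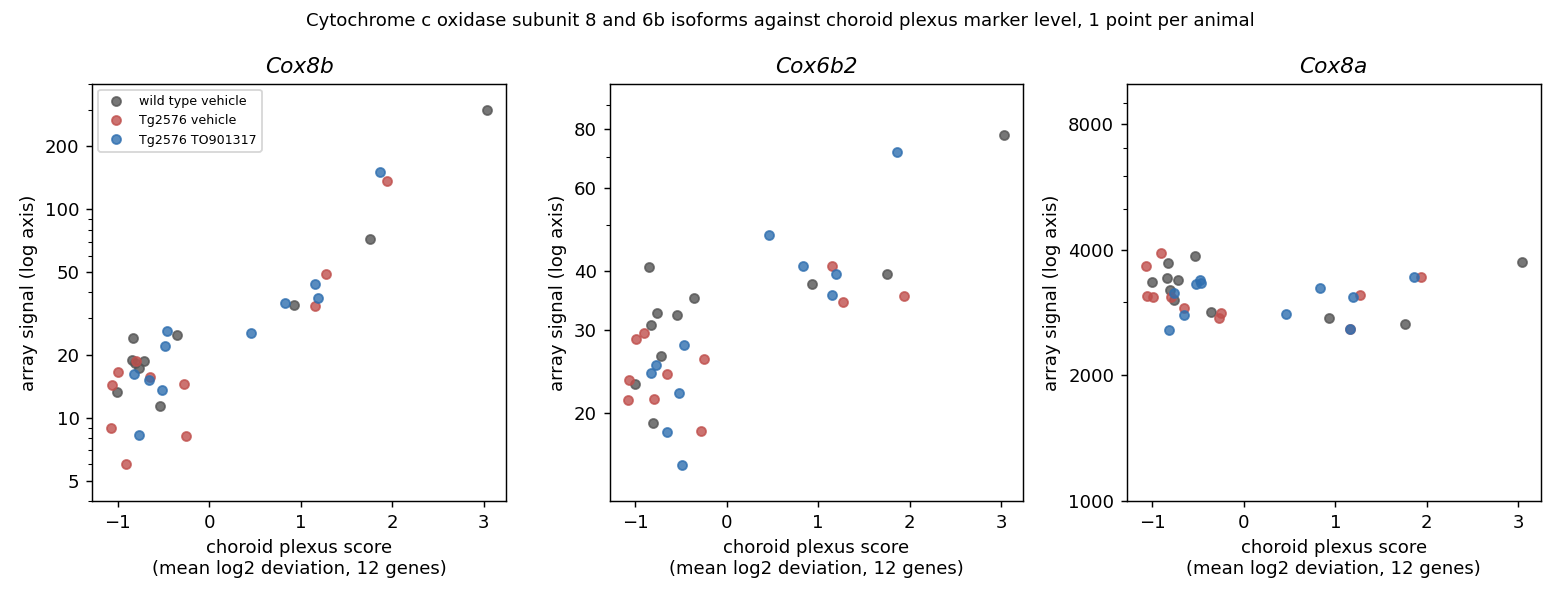
Signals of Cox8b, Cox6b2 and Cox8a (vertical axes, logarithmic) against the choroid plexus score (horizontal axis, mean log2 deviation of 12 marker genes), 1 point per animal, coloured by group. Cox8b climbs to 299 on the array of highest score. Cox8a lies between 2575 and 3920 over all arrays, with a slope of 0.17 log2 units per unit of score in the high arrays.

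Of the mitochondrial genes outside the symbol rule, 2 passed in 1 comparison. Among 53 assembly factors tested, 18 of complex I and 35 of complexes II to V, none passed in vehicle Tg2576 against wild type or in treated against vehicle Tg2576. In treated Tg2576 against wild type, where 0.361% of all genes passed, 1 of the 53 did: Cox20, an assembly factor of cytochrome c oxidase, had a log2 change of -0.22 (adjusted p = 0.042). The median change of the 18 complex I factors was 0.05, -0.06 and -0.015 in the 3 comparisons, and that of the 35 others was 0.04, -0.07 and -0.013. Of 13 carriers and membrane proteins 1 passed in that comparison: Slc25a12, the aspartate/glutamate carrier Aralar of neurons, was higher by 0.18 (adjusted p = 0.044). Both calls lay near the limit: with 1 array left out at a time, Cox20 passed in 18 of 33 fits and Slc25a12 in 14 of 33. No gene passed in any comparison among the 16 regulators of mitochondrial biogenesis, the 12 of coenzyme Q synthesis, the 19 of the tricarboxylic acid cycle, the 13 of glycolysis and the 5 other subunits and carriers. Esrra, which encodes the receptor ERR alpha, was the regulator of smallest p in treated against vehicle Tg2576, with a change of 0.11 (adjusted p = 0.482).

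ND5, a complex I subunit encoded on mitochondrial DNA, was read by 1 probe set. Its signals were 4051 to 5895 in wild type (median 4761), 3570 to 5264 in vehicle Tg2576 (median 4741) and 4415 to 6068 in treated Tg2576 (median 5072). The treated group reached highest, with overlap of all ranges, and the log2 change in treated against vehicle Tg2576 was 0.17 ± 0.07 (SE, adjusted p = 0.319).

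Among cell type markers, 1 of 11 astrocyte genes passed: Slc4a4, a bicarbonate transporter gene, had a log2 change of -0.27 in vehicle Tg2576 against wild type and -0.29 in treated Tg2576 against wild type (adjusted p = 0.00177 and 0.000347). Of 11 endothelial genes, Slco1a4, a transporter of the blood-brain barrier, passed in treated against vehicle Tg2576 with 0.42 (adjusted p = 0.0124). The Slc4a4 calls were lost with the mean of its probe sets and within either range of replicate numbers, and over 51 alternatives its change in vehicle Tg2576 against wild type ran from -0.29 to -0.15. The Slco1a4 call was lost without vehicle Tg2576 replicates 3 and 4 and within either range of replicate numbers. No gene passed in any comparison among the 15 neuron, 9 parvalbumin interneuron, 11 oligodendrocyte, 11 microglia, 10 pericyte and smooth muscle, 12 meningeal fibroblast, 12 choroid plexus and 10 thalamus and striatum markers tested. The meningeal markers had a median log2 change of 0.39 in vehicle Tg2576 against wild type, with 8 of 12 higher at an unadjusted p under 0.05, where 6.37% of all genes were (smallest adjusted p = 0.177). In that comparison 5 of 11 astrocyte genes were lower and 1 higher at the same limit. Of 11 oligodendrocyte genes 3 were lower, where 5.53% of all genes were. In treated against vehicle Tg2576, 4 of 11 endothelial genes were higher at that limit, where 5.09% of all genes were. The summed signal of the 15 neuron markers ran from 21681 to 26627 in wild type, from 22338 to 26679 in vehicle Tg2576 and from 22723 to 26316 in treated Tg2576. The part of these cell types in the subunit levels was not tested, apart from the fit with marker scores.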

How the data were processed

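The authors deposited linear intensity values, 1 per probe set and array, from MAS5 per the submitters' processing notes, whose version and settings the sources used here do not give. Of 45101 probe sets, 64 controls were left out, 34945 named 1 gene, 932 several and 9160 none in the platform annotation used. The lowest 40% of probe sets by mean log2(signal + 16), or below about 13.3 in signal, were dropped, and the highest-mean probe set stood for each gene. Tests used limma 3.58.1 (R 4.3.3), with 3 group means, contrasts and a robust empirical Bayes variance with trend, checked on simulated data, with Benjamini-Hochberg adjustment. Alternatives covered the pseudocount, filter, scaling, probe set rule, covariates, variance model, replicate number, arrays left out and an exact rank-sum test. Members, gene lists and tests were chosen with earlier results of these data known. Named are members of smallest p per complex and comparison, fixed core subunits, isoform families and the extremes of relative spread. Same-numbered animals did not pair (correlations from -0.11 to 0.22, and 3 of 33 arrays matched their own number best). Intervals are at 95%. Scan dates and detection calls were not used here.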

Additional observations from a re-analysis of the deposited data

How the results depend on the processing

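The count of called members stayed at 0 in all 3 comparisons under every alternative run, except with neuron, astrocyte and oligodendrocyte scores as covariates, where 2 passed in treated against vehicle Tg2576, Atp5e (-0.21, adjusted p = 0.0239) and Cox5a; the cause was not tested. With the replicate block, 0 members passed, and 51, 31 and 65 genes passed in all against 30, 36 and 46. Other counts over all genes that differed by over 1.5 times were 22 and 26 without a filter in both drug comparisons, 10 and 20 with centred arrays in the same, 29 without trend and robust in treated Tg2576 against wild type, 59 and 65 with the Gapdh ratio in both comparisons with vehicle Tg2576, 97 with the marker scores in treated against vehicle Tg2576, and 14, 24 and 26 by the rank-sum test. With 1 array left out they ranged from 23 to 56, from 20 to 42 and from 22 to 50. Counts with the number range as a covariate, chosen after seeing the data, were 67, 60 and 79.

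The median change of the members ranged from -0.023 to 0.0033, from -0.028 to 0.0041 and from -0.037 to -0.0094 with each array left out. It was 0.012 after quantile normalization and 0.017 with the marker scores in vehicle Tg2576 against wild type (-0.0080 as reported). In treated against vehicle Tg2576 it was -0.042 under each of these, and 0.010 with the Gapdh ratio or 0.0098 without vehicle Tg2576 replicates 3 and 4 (-0.015 as reported). The median pair correlation moved from 0.41 to 0.13 after quantile normalization and to 0.66 with centred arrays.

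The sign turned for Sdhc in treated against vehicle Tg2576 with the mean of its probe sets (-0.035). In treated Tg2576 against wild type it turned with the marker scores for Cox8b (0.19) and Cox6b2 (0.058), and with 1 array left out for Cox8b (0.0039, 0.19 and 0.0015 without wild-type replicates 8 and 10 and treated replicate 2) and Cox6b2 (0.0057 without wild-type replicate 10). The correlation of Cox6b2 with the choroid plexus score in low arrays, -0.077, turned to 0.020 with pseudocount 1, and to 0.044 and 0.012 without vehicle Tg2576 replicate 10 or treated replicate 3. With each array left out the change ranged from -0.28 to 0.19 for Cox8b and from -0.17 to 0.0057 for Cox6b2. None of these had passed a test. The widest intervals were those of Cox8b, Ndufa4l2 and Cox6b2; whether their dim signals account for this was not tested.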
